A study of Mus musculus with 24 samples.

Results

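Gene expression in the medial prefrontal cortex (mPFC) was compared between 6 female offspring of dams given morphine (MO) and 6 female offspring of dams given saline (SAL), all at postnatal day 21 (P21). All mice were B6D2F1/J hybrids, each with a C57BL/6J mother and a DBA/2J father. The dams, and not the offspring, received morphine sulfate subcutaneously once a day at 10 mg/kg, after a ramp of lower doses, or saline. Dosing ran from before breeding through gestation and lactation to weaning, so MO is exposure through the mother before and after birth, and it cannot be told apart from any change in maternal care. The study took 1 offspring per litter and sex, and small litters had been combined after birth. Libraries were made from polyadenylated RNA of whole dissected tissue, so fewer cells of a type and less RNA per cell cannot be told apart. The comparison used 12 of the 24 libraries of the series (MO: PFC1, PFC3, PFC5, PFC8, PFC21 and PFC23; SAL: PFC2, PFC4, PFC6, PFC7, PFC22 and PFC24). It covers the 10564 genes, of 24972 listed, whose mean over these 12 libraries was at least 100 normalized counts, which is the authors' unit of reads scaled for library size. Those genes hold 98.9% of the summed counts.

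The mPFC supports attention, planning and control of impulses. At weaning its circuits are still being built: axons thicken and gain neurofilaments, oligodendrocytes wrap them in myelin, nets of proteoglycan close around parvalbumin interneurons, and capillaries go on branching. Opioid receptors couple to inhibitory G proteins and dampen neuronal firing. Immediate early genes, which neurons switch on within minutes of being active, are a common readout of recent activity.

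Markers of cortical tissue were present in every library, with Slc17a7, the vesicular glutamate transporter of cortical projection neurons, at 24987 to 36047 normalized counts. The MO library PFC1 stood apart from the other 11. On the first principal component, which held 47.5% of the variance, it scored -43.3, and the other libraries lay between -10.4 and 16.1. Its median Spearman correlation with the others was 0.954, against 0.987 to 0.992 for each of the rest. PFC1 was the highest or the lowest of the 12 libraries for 63.2% of the genes, where each of the others was so for 5.06% to 22.2%. Summed markers of striatal projection neurons came to 27069 normalized counts in PFC1 and to between 14185 and 15893 elsewhere. Summed markers of mature oligodendrocytes were 333320 in PFC1 and at most 192150 elsewhere, and those of astrocytes were 263360 against at most 210110. Interneuron markers were lowest in PFC1, at 21501 against at least 23612. Neutrophil markers summed to at most 93.6 in the other libraries and reached 569 in PFC1. What part PFC1 has in the differences between the groups was not tested beyond leaving it out, and the comparison is therefore given with and without this library.

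**Figure D1:**
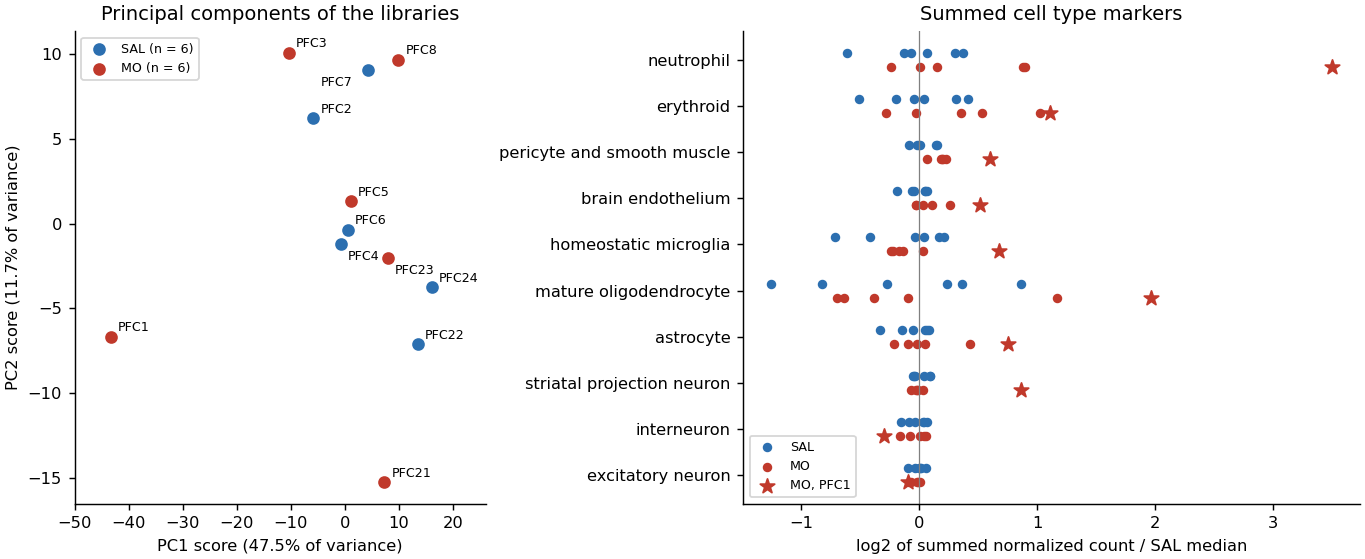
Left, scores of the 12 female libraries on the first (x axis) and second (y axis) principal components of log2(normalized count + 1), SAL in blue and MO in red. Right, summed normalized counts of the markers of each cell type as log2 of the ratio to the SAL median (x axis), each point a library and the star PFC1. PFC1 lies alone at -43.3 on the first component and is the highest library for oligodendrocyte, striatal, astrocyte and neutrophil markers.

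Over the 10564 genes compared, differences between MO and SAL were small. At an unadjusted p under 0.05 in limma, MO was higher for 105 genes (0.994% of the 10564) and lower for 98 (0.928%), in all 203 genes or 1.92%. That share is smaller than the threshold itself. None passed an adjusted p of 0.05 (Benjamini-Hochberg over 16717 genes fitted, smallest adjusted p = 0.918). "Called" below means an unadjusted p under 0.05 in this fit, so every called gene is a candidate and not an established difference. The log2 fold changes of called genes had a median size of 0.22 and reached at most 0.67, on the log2(normalized count + 1) scale. These sizes hold only for genes with a mean of at least 100, and folds of genes under it are not given. Of all 16717 genes fitted, 490 (2.93%) had an unadjusted p under 0.05. Without PFC1, 86 genes were higher (0.814%) and 61 lower (0.577%), in all 147 or 1.39%, and none passed the adjusted threshold (smallest adjusted p = 1.00). Both fits shared 55 of the higher and 47 of the lower genes, and all 203 called genes kept their sign without PFC1. The column names of 8 of the libraries carry a suffix, combined, whose meaning is not stated. Within both the 4 MO and 4 SAL libraries with it and the 2 MO and 2 SAL libraries without it, 99 of the 105 higher genes were higher and 97 of the 98 lower genes were lower. The genes had been picked on these same libraries. Both this agreement and the signs kept without PFC1 were thus largely set in advance and are no separate support. The counts leaned on single libraries: without MO replicate PFC8 or PFC21 there were 246 or 269 higher and 267 or 210 lower genes, and without SAL replicate PFC4 or MO replicate PFC1 only 58 or 61 lower genes. With a term for the suffix, 175 genes were higher.

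**Figure D2:**
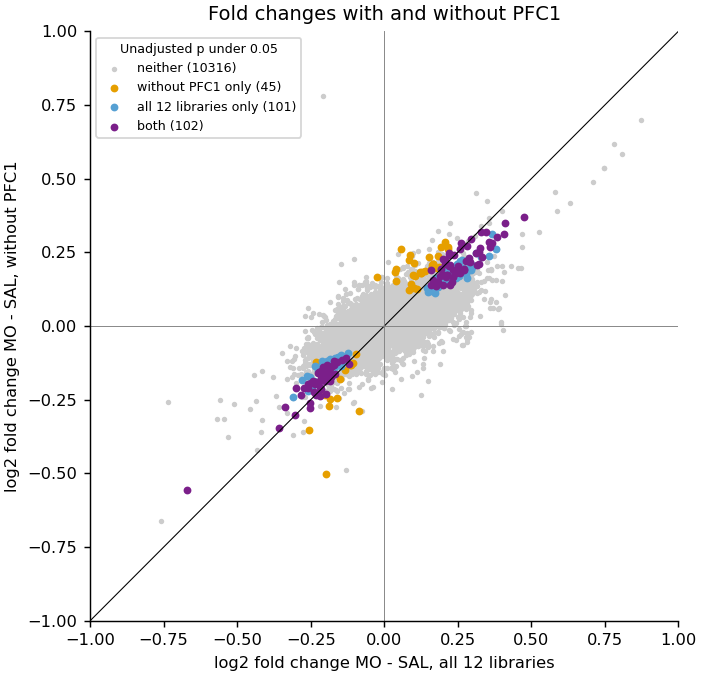
Log2 fold change of MO against SAL for each gene with all 12 libraries (x axis) and without PFC1 (y axis), with the black line at equal values. Of the genes drawn in colour, 102 were called in both fits and 45 without PFC1 alone, and 3 genes of the 10564 lie outside the axes.

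The gene with the smallest p was Gli3 (chr13:15463235-15730026, mm10, plus strand), a zinc finger transcription factor that acts mostly as the repressor of hedgehog signaling and is kept by cortical astrocytes after birth. Its normalized counts ran from 91.3 to 116 in SAL (median 97.1) and from 106 to 163 in MO (median 130). The SAL libraries other than PFC22 lay at or under 99.8, below the minimum mean of 100. Gli3 was thus read out through its MO values, and its place among the higher genes was partly set by that filter. Of the 6 MO libraries 5 lay above every SAL library, and PFC5, the lowest, lay within the SAL range. The log2 fold change was 0.41 (SE 0.11, exact permutation test, p = 0.00433) and without PFC1 it was 0.35 (exact permutation p = 0.00649). Smad5 (chr13:56703010-56742377), which carries signals of bone morphogenetic proteins to the nucleus, followed it. It ran from 325 to 406 in SAL (median 344) and from 372 to 548 in MO (median 436), and again 5 of 6 MO libraries lay above every SAL library (log2 fold change 0.32, SE 0.09, exact permutation p = 0.00649; 0.26 without PFC1). Of 8 hedgehog pathway genes read out, Gli3 alone was called, against 1.92% of all genes. The receptor Ptch1 had a log2 fold change of 0.20 (SE 0.10, exact permutation p = 0.0974), the median of the list was 0.19, against -0.01 over all genes, and 0.10 without PFC1. Bahcc1, a chromatin protein that binds repressive histone marks, ran from 179 to 224 in SAL and from 217 to 252 in MO, with 5 MO libraries above every SAL library. Its difference did not draw on PFC1, with a log2 fold change of 0.26 both with it and without it (SE 0.08, exact permutation p = 0.00433 and 0.00866). The calls of Gli3, Smad5 and Bahcc1 held whichever of the 12 libraries was left out. Within the 4 libraries without the suffix Smad5 had a difference of 0.14.

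Called higher genes included some of the vessel wall. Slc16a1 (chr3:104638668-104658462), the monocarboxylate transporter MCT1 that carries lactate and ketone bodies across the endothelium and is needed by the suckling brain, ran from 773 to 1023 normalized counts in SAL (median 842) and from 935 to 1176 in MO (median 1052). All 6 MO libraries lay above the SAL mean and 4 above every SAL library (log2 fold change 0.28, SE 0.08, exact permutation p = 0.0108; 0.27 without PFC1, exact permutation p = 0.0238). Podxl, a sialomucin of the endothelial surface, ran from 349 to 439 in SAL and from 404 to 624 in MO, with 5 MO libraries above every SAL library. Its log2 fold change was 0.31 (exact permutation p = 0.00866), 0.25 without PFC1, the highest library, and 0.14 within the 4 libraries without the suffix. Hspa12b, an atypical heat shock protein family member of endothelial cells, ran from 74.6 to 114 in SAL and from 112 to 170 in MO, with 5 MO libraries above every SAL library (log2 fold change 0.38, exact permutation p = 0.00433; 0.30 without PFC1).

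Of 18 brain endothelium markers read out, 4 were called, all higher (Slc16a1, Pecam1, Flt1 and Kdr), where 0.994% of all genes were called higher. As for all lists here, the members were chosen with earlier results of these data known. Such contrasts with all genes are therefore descriptions and no tests. The log2 fold change was above 0 for 16 of the 18, with a median of 0.16, and for 45.1% of all genes. Without PFC1 2 were called (Slc16a1 and Pecam1), where 0.814% of all genes were called higher. In that fit 14 were above 0 and the median was 0.09, against 51.8% of all genes above 0. Pecam1, an adhesion molecule at endothelial junctions, ran from 260 to 340 in SAL and from 288 to 516 in MO, and 4 MO libraries lay above every SAL library (log2 fold change 0.33, exact permutation p = 0.0260; 0.23 without PFC1). The groups overlapped, and the MO library PFC21 was below the SAL mean. Within the 4 libraries without the suffix the difference of Pecam1 was 0.20. The receptors of vascular endothelial growth factor Flt1 and Kdr had log2 fold changes of 0.21 and 0.19, with all 6 MO libraries above the SAL mean for both (exact permutation p = 0.0519 and 0.0563). Their calls were fragile: that of Flt1 was lost without PFC1, PFC3, PFC4 or PFC24, and that of Kdr without any of PFC1, PFC2, PFC3, PFC4, PFC5, PFC8, PFC22 and PFC24. Cldn5, the tight junction claudin of brain capillaries, was not called, at 885 in MO and 785 in SAL on average (log2 fold change 0.17), nor was the glucose transporter gene Slc2a1 (0.04).

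Mural cells that wrap these capillaries gave values of the same sign. All 9 pericyte and smooth muscle markers read out had a log2 fold change above 0, with and without PFC1 (median 0.16 and 0.13). With all libraries 1 was called and without PFC1 none (limma, unadjusted), against 1.92% and 1.39% of all genes. The called gene was Rgs5, a regulator of G protein signaling used to mark pericytes, which ran from 2349 to 3101 in SAL and from 2448 to 3987 in MO, with 3 MO libraries above every SAL library (log2 fold change 0.25, exact permutation p = 0.0563). Its call was lost without PFC1, PFC3, PFC4, PFC5, PFC7, PFC22 or PFC24, and within the 4 libraries without the suffix the difference was 0.11. Of 12 collagen chains 2 were called, against 1.92% of all genes. They were Col4a1 and Col4a2, neighbours on chromosome 8 whose products twist together into collagen IV, the main fibre of the vascular basement membrane. Col4a2 ran from 553 to 686 in SAL and from 621 to 912 in MO, with 4 MO libraries above every SAL library (log2 fold change 0.22, exact permutation p = 0.0368). PFC3 was its highest library, and the value was 0.24 without PFC1. Col4a1 had a log2 fold change of 0.20 (exact permutation p = 0.0519), 0.18 without PFC1 and 0.10 within the 4 libraries without the suffix. The call of Col4a2 was lost without PFC2, PFC3 or PFC24, and that of Col4a1 without PFC1, PFC2, PFC3, PFC5, PFC8, PFC22 or PFC24. Summed pericyte and smooth muscle markers ran from 4023 to 4736 in SAL and from 4474 to 5001 in the MO libraries other than PFC1, and endothelial markers from 9961 to 11821 and from 11099 to 13582, so these groups overlapped. PFC1 held the highest sum of each, at 6492 for pericyte and smooth muscle markers and 16220 for endothelial markers.

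**Figure D3:**
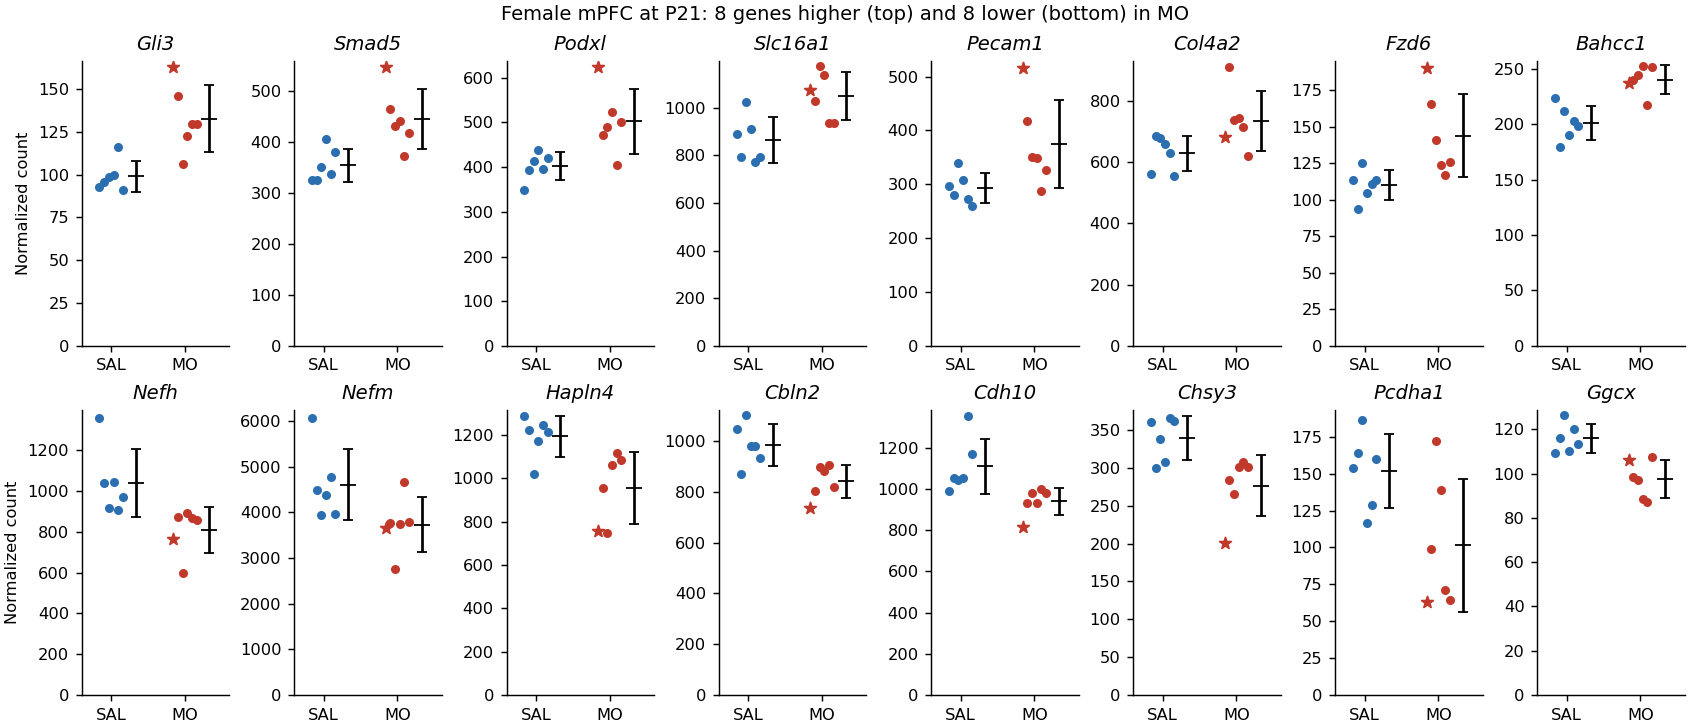
Normalized counts (y axes, starting at 0) of 16 called genes in the 6 SAL (blue) and 6 MO (red) female libraries, each point a library and the star PFC1. Black bars are means and SD. For 5 of 6 MO libraries Gli3 lies above every SAL library, and for Nefh and Ggcx the groups do not overlap.

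Wnt ligands of the Wnt7 family signal to brain endothelium and build the blood-brain barrier. Of 20 Wnt pathway genes read out, 2 were called, both higher, where 0.994% of all genes were called higher. The receptor Fzd6 ran from 93.8 to 125 in SAL and from 117 to 190 in MO, with 4 MO libraries above every SAL library (log2 fold change 0.36, SE 0.12, exact permutation p = 0.00649; 0.28 without PFC1). Its call held whichever library was left out, and within the 4 libraries without the suffix the difference was 0.12. The ligand Wnt7a had a log2 fold change of 0.26 (exact permutation p = 0.0714) with 5 MO libraries above the SAL mean, and the call was lost without PFC1, PFC2, PFC4, PFC5, PFC8, PFC22, PFC23 or PFC24. The median of the list was 0.05.

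The lower genes included subunits of neurofilaments. Nefh (chr11:4938754-4948064), the heavy neurofilament subunit that fills large axons as they mature, ran from 905 to 1358 normalized counts in SAL (median 1003) and from 597 to 893 in MO (median 863). The groups did not overlap. The log2 fold change was -0.36 (SE 0.11, exact permutation p = 0.00216, which this design cannot go below), and it was -0.35 without PFC1. Within the 8 libraries with the suffix the difference was -0.48 and within the 4 without it -0.12. Nefm (chr14), the medium subunit, ran from 3951 to 6077 in SAL and from 2762 to 4665 in MO, and 5 MO libraries lay below every SAL library (log2 fold change -0.31, exact permutation p = 0.0325; -0.30 without PFC1). Its call was lost without PFC2, the highest SAL library, or PFC5, the lowest MO library, and within the 4 libraries without the suffix the difference was -0.05. The light subunit Nefl, named here after its values were seen, was not called, at 8818 ± 417 in MO and 9511 ± 859 in SAL (SD, n = 6 each; log2 fold change -0.11).

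Hapln4 (chr8:70083457-70090862) is a brain link protein that ties proteoglycans to hyaluronan in perineuronal nets. It ran from 1018 to 1287 in SAL (median 1219.5) and from 747 to 1119 in MO (median 1008.5). Of the MO libraries 3 lay below every SAL library and all 6 below the SAL mean (log2 fold change -0.34, SE 0.11, exact permutation p = 0.0108; -0.27 without PFC1). PFC1 and PFC5 were the lowest, at 756 and 747, and within the 4 libraries without the suffix the difference was -0.16. Of 14 perineuronal net and matrix proteoglycan genes read out, 3 were called, 2 higher and 1 lower, against 1.92% of all genes, and without PFC1 Hapln4 alone was called. The link protein of proteoglycans Hapln1 ran the other way, from 604 to 793 in SAL and from 699 to 939 in MO (log2 fold change 0.21, exact permutation p = 0.0411). It was called with all libraries and lost its call without PFC1, PFC2, PFC5 or PFC7, and within the 4 libraries without the suffix its sign turned, at -0.08. Ptprz1, a receptor phosphatase whose shed part is the proteoglycan phosphacan, had a log2 fold change of 0.22 (exact permutation p = 0.0693). Its call was lost without PFC1, PFC2, PFC3, PFC5, PFC8, PFC22 or PFC24, and within the 4 libraries without the suffix the difference was 0.08. The median of the list was 0.06, and 0.04 without PFC1. Outside the list, Chsy3, which lengthens the chondroitin sulfate chains of such proteoglycans, was lower, from 299 to 366 in SAL and from 201 to 308 in MO (log2 fold change -0.30, exact permutation p = 0.0130; -0.21 without PFC1, the lowest library).

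Of the genes of parvalbumin interneurons, the cells that perineuronal nets surround, 3 are given that were chosen after their values were seen, so they do not speak for the cell type. In SAL the library PFC2 was far above the other libraries for each of them. Scn4b, a sodium channel subunit that speeds repeated firing, stood at 1106 in PFC1 and from 201 to 367 in the other 5 MO libraries, against 365 to 701 in SAL. With all libraries its log2 fold change was -0.20 (exact permutation p = 0.628), and without PFC1 it was -0.50 and called (exact permutation p = 0.0130). Scn4b is also abundant in striatal projection neurons, whose markers are high in PFC1. Vamp1, a vesicle protein of fast terminals, had -0.14 and without PFC1 -0.23 (exact permutation p = 0.366 and 0.110), and Pvalb itself -0.16 and -0.22 (exact permutation p = 0.340 and 0.229). Neither was called in either fit. Over 20 interneuron markers read out, 0 were called, 8 were above 0 and the median was -0.03. Without PFC1 14 of the 20 were above 0 and the median was 0.03.

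Other lower genes included Cbln2, Cdh10, Pcdha1 and Sema3a. Cbln2, a secreted organizer that bridges neurexins and glutamate receptors across the synapse and is enriched in the frontal cortex, ran from 869 to 1103 in SAL (median 981) and from 737 to 907 in MO (median 850). All 6 MO libraries lay below the SAL mean and 3 below every SAL library (log2 fold change -0.23, SE 0.07, exact permutation p = 0.0108; -0.19 without PFC1 and -0.15 within the 4 libraries without the suffix). Cdh10, a type II cadherin, ran from 991 to 1355 in SAL and from 815 to 999 in MO, with 5 MO libraries below every SAL library (log2 fold change -0.24, exact permutation p = 0.00433; -0.20 without PFC1). Pcdha1, the first variable exon gene of the protocadherin alpha cluster, showed the largest fold among called genes: from 117 to 187 in SAL and from 63.2 to 172 in MO (log2 fold change -0.67, SE 0.23, exact permutation p = 0.0390; -0.56 without PFC1). Its MO libraries were spread, with 4 below every SAL library and PFC5 near the top of the SAL range. Genes of this cluster share their last exons, so how reads were divided among them is uncertain. Of 51 protocadherins read out, Pcdha1 alone was called, a share close to the 1.92% of all genes, and the median was -0.07, and 0.01 without PFC1. Sema3a, a secreted repellent of growing axons that also gathers in perineuronal nets, ran from 373 to 527 in SAL and from 295 to 400 in MO (log2 fold change -0.25, exact permutation p = 0.0260). It was the called gene, 1 of 45 semaphorins, plexins, ephrins and Eph receptors, a share close to that of all genes, and its call was lost without PFC22. The calls of Nefh, Hapln4, Chsy3, Cbln2, Cdh10 and Pcdha1 held whichever library was left out.

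Other lower genes near the head of the list were Luzp1, an actin-associated leucine zipper protein (log2 fold change -0.21), Mthfd1l, a mitochondrial enzyme of folate metabolism (-0.28), and Wee1, a kinase that holds cells back from mitosis (-0.26), with at least 5 of 6 MO libraries below the SAL mean for each. Among higher ones were Ldlrad3 (0.41), Lrrc58 (0.29), Tmem198b (0.48) and Tekt5 (0.33), each with all 6 MO libraries above the SAL mean. Their calls held whichever library was left out. No SAL library was above 97.1 for Tmem198b, so it was read out through its MO values, as Gli3 was. Within the 4 libraries without the suffix the difference was 0.01 for Lrrc58, 0.15 for Ldlrad3 and -0.16 for Mthfd1l.

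The 2 groups did not overlap for 1 higher gene (0.00947% of the 10564) and 6 lower genes (0.0568%). The higher gene was 4933434E20Rik, an unnamed transcript, from 527 to 720 in SAL and from 740 to 921 in MO (log2 fold change 0.23). Beside Nefh, the lower genes were Ggcx, Ttc8, Gorab, Pld3 and Actr1b. Ggcx, the vitamin K-dependent carboxylase that activates proteins such as Gas6, ran from 109 to 127 in SAL and from 87.1 to 107 in MO (log2 fold change -0.25, and -0.28 without PFC1). Ttc8, a subunit of the BBSome that moves receptors into and out of cilia, ran from 127 to 134 in SAL, and no MO library was above 123 (MO median 111, log2 fold change -0.23). Gorab, a Golgi protein, ran from 138 to 155 and from 117 to 137 (log2 fold change -0.20), and its call was lost without PFC7. Pld3, a lysosomal nuclease of neurons, and Actr1b, a subunit of dynactin, which links dynein to its cargo, separated the groups by small differences, -0.13 and -0.10, and were not called, though Actr1b was called without PFC1 at -0.10. These 7 genes were picked for complete separation, which alone sets the exact permutation p at 0.00216, the lowest value possible here. That p is therefore no further support, and the 2 shares of genes without overlap given above are both smaller than it.

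Other single members of lists were called as follows, where 1.92% of all genes were called in either direction. Arntl, the clock activator BMAL1, was lower, from 395 to 470 in SAL and from 301 to 428 in MO (log2 fold change -0.22, exact permutation p = 0.0281), 1 of 21 clock genes. Its call was lost without PFC7, and within the 4 libraries without the suffix the difference was -0.13. The regulator Rgs4 was lower (-0.23, exact permutation p = 0.0628), and with Rgs5 above it made 2 of 16 RGS genes. The call of Rgs4 was lost without PFC1, PFC3, PFC4, PFC5, PFC6, PFC7, PFC22, PFC23 or PFC24. Kcnv1, a silent potassium channel subunit, was lower (-0.19, exact permutation p = 0.0498), 1 of 23 voltage-gated potassium channels, a call lost without PFC1, PFC3, PFC4, PFC22, PFC23 or PFC24. Homer2, a scaffold of metabotropic glutamate receptors, was higher (0.16, exact permutation p = 0.0346), 1 of 29 postsynaptic density genes. Its call was lost without PFC2, PFC3, PFC4, PFC5, PFC7 or PFC24, and within the 4 libraries without the suffix the difference was 0.01. Itpr2, a calcium release channel, was higher (0.29, exact permutation p = 0.0303), 1 of 16 genes of oligodendrocyte precursors and newly formed cells, and lost its call without PFC3.

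None of the 29 immediate early genes read out was called (limma, unadjusted p), and their levels were low in 2 of the 6 MO libraries and in 1 of the 6 SAL libraries. Of the 29, 25 had a log2 fold change under 0, with a median of -0.24 against -0.01 over all genes. Without PFC1 20 were under 0 with a median of -0.12 against 0.00 over all genes. Egr1, a zinc finger transcription factor induced by synaptic activity, ran from 4419 to 8340 normalized counts in SAL (median 7370) and from 1932 to 7006 in MO (median 6205). PFC1 and PFC5 were the lowest MO libraries and PFC6 the lowest SAL library, and 4 of the MO libraries lay within the SAL range (log2 fold change -0.57, 95% interval -1.16 to 0.03, exact permutation p = 0.145; -0.31 without PFC1). Arc, which removes glutamate receptors from active synapses, ran from 1757 to 8261 in SAL and from 681 to 6708 in MO (log2 fold change -0.76, 95% interval -1.78 to 0.26; -0.66 without PFC1). Fos ran from 391 to 915 in SAL and from 172 to 950 in MO (log2 fold change -0.56, exact permutation p = 0.208; -0.25 without PFC1). Egr2 had a log2 fold change of -0.74 with all libraries and -0.26 without PFC1, where it stood at 29.2 against 64.3 to 438 in the other MO libraries.

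The low values came from few libraries. Summed over the list, normalized counts came to 16615 in PFC1, 18873 in PFC5 and 23642 in the SAL library PFC6, and to between 31080 and 38450 in the other 9. Of the 29 genes, 26 lay under the SAL mean in PFC1, 27 in PFC5 and 26 in PFC6, against 7 to 19 in each of the rest. The sums of the other 4 MO libraries, 31080 to 37350, overlapped those of the other 5 SAL libraries, 33780 to 38450. PFC1 and PFC5 also held the highest sums of red blood cell markers, 47713 and 45034 against 15505 to 32010 elsewhere, and the part of these in the pattern was not tested. The median of red blood cell markers in males was 0.40. In the male libraries, normalized separately and from other animals, 27 of the same 29 genes had a log2 fold change under 0 with a median of -0.32. Of them 16 were lower in MO males by the same unadjusted threshold, where 1.27% of all 10564 genes were (0.852% were higher). The male and female offspring came from shared litters, and which animals were littermates is not given. Male values were -0.51 for Egr1, -1.10 for Arc, -0.67 for Fos and -1.09 for Egr2.

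**Figure D4:**
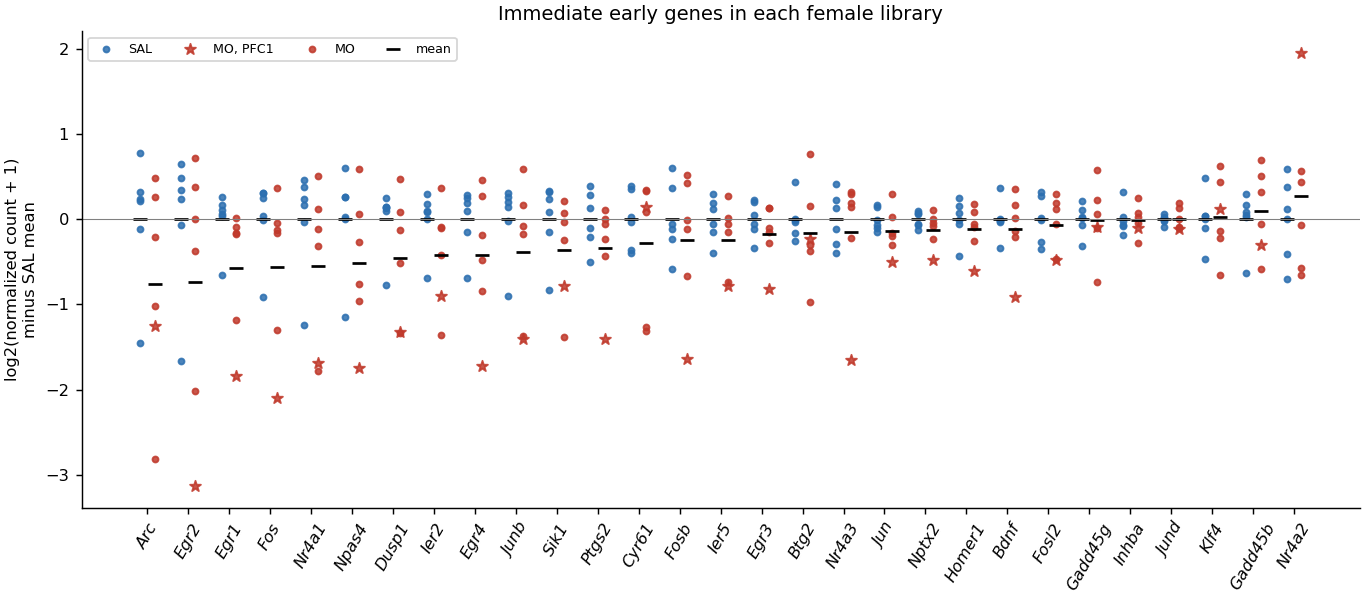
Log2(normalized count + 1) of 29 immediate early genes in each female library, less the SAL mean of the gene (y axis), SAL in blue, MO in red, PFC1 as a star and group means as black bars. Genes are ordered by log2 fold change, from -0.76 for Arc to 0.28 for Nr4a2, and the low points of many genes are PFC1.

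The classic route to these genes runs through CREB, which binds the cAMP response element TGACGTCA and is held down when opioid receptors inhibit adenylyl cyclase. This element reads the same on both strands. RefSeq promoters (GRCm38.p6, 250 bases before to 50 after the start) were at hand for 23 of the 30 listed symbols, and 2 of these held the full element, where 2.03% of 27025 symbols did and 3.79% of the 8311 read out here. Both are shown, 5′ to 3′ and upstream of the start, with the element in capitals. Btg2 lies at chr1:134079254-134079381 and Dusp1 at chr17:26508548-26508675, both on the minus strand.
Btg2: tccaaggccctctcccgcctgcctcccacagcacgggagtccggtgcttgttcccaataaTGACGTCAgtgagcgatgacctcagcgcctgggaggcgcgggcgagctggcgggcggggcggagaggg
Dusp1: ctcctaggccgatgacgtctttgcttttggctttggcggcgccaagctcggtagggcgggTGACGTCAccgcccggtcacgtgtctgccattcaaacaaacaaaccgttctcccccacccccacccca
For Btg2, an antiproliferative gene, the log2 fold change in females was -0.16, and for Dusp1, a phosphatase that ends MAP kinase signaling, it was -0.45. Neither was called, and without PFC1 the values were -0.14 and -0.28. A match is a description of these letters and does not show binding.

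The 4 glial lists had medians above 0 with all libraries. Without PFC1 those of mature oligodendrocytes and microglia were not, and those of astrocytes and of oligodendrocyte precursors were. All 19 mature oligodendrocyte genes were above 0 with all libraries (median 0.28), 0 were called, and without PFC1 8 were above 0 with a median of -0.01. Mbp, the myelin basic protein, ran from 12125 to 51049 in SAL and from 18355 to 130090 in MO, with PFC1 the highest and 67897 the highest of the other MO libraries (log2 fold change 0.40, SE 0.47; 0.01 without PFC1). The difference was smaller than its SE, so a change of this size was not detectable with 6 libraries each. Astrocyte genes were above 0 for 20 of 20 with a median of 0.21, and for 17 of 20 without PFC1 with a median of 0.08. Gli3 was the called member in both fits, where 1.92% and 1.39% of all genes were called. It was read out through its MO values, as stated above. Genes of oligodendrocyte precursors and newly formed cells were above 0 for 15 of 16 with a median of 0.19, and for 16 of 16 without PFC1 with a median of 0.08. Itpr2, above, was the called member in both fits. Homeostatic microglia genes had medians of 0.12 and -0.01, with 0 of 21 called, and Csf1r, an abundant member, had a log2 fold change of 0.01 with all libraries and of -0.11 without PFC1. In males the median was 0.22 for mature oligodendrocytes, with 19 of 19 genes above 0 and 0 at an unadjusted p under 0.05. Male medians were 0.11 for oligodendrocyte precursors and newly formed cells, 0.008 for astrocytes and -0.001 for microglia. Microglia, the resident macrophages of the brain, were a target of the study through toll-like receptor 4. Of 37 listed toll-like receptor signaling genes 18 reached a mean of 100, Tlr4 itself not among them, 0 of the 18 were called and the median was 0.03.

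The following neuronal and synaptic lists had medians under 0 with all libraries and nearer to 0 without PFC1. Excitatory neuron genes had a median of -0.11 with all libraries and 0.00 without PFC1, with 0 of 12 called in both. Presynaptic release genes had -0.10 and -0.04. None of the 27 was called with all libraries and Syn1 (synapsin I, -0.12, named for this reason) was called without PFC1. Voltage-gated calcium and sodium channels were under 0 for 22 of 23 with a median of -0.12, and for 13 of 23 without PFC1 with a median of -0.01. Ionotropic glutamate receptors had -0.10 and 0.01, and GABA-A receptor subunits -0.10 and 0.00, with 0 of 17 and 0 of 12 called with all libraries. Without PFC1 the kainate receptor subunit Grik1, at 0.24, was called. In these lists PFC1, the library lowest in interneuron markers, was the lowest sum for both receptor lists, at 29454 against at least 42426 and 22602 against at least 29294. Heat shock chaperones were under 0 for 20 of 23, with a median of -0.14 and without PFC1 -0.05, and 0 were called.

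**Figure D5:**
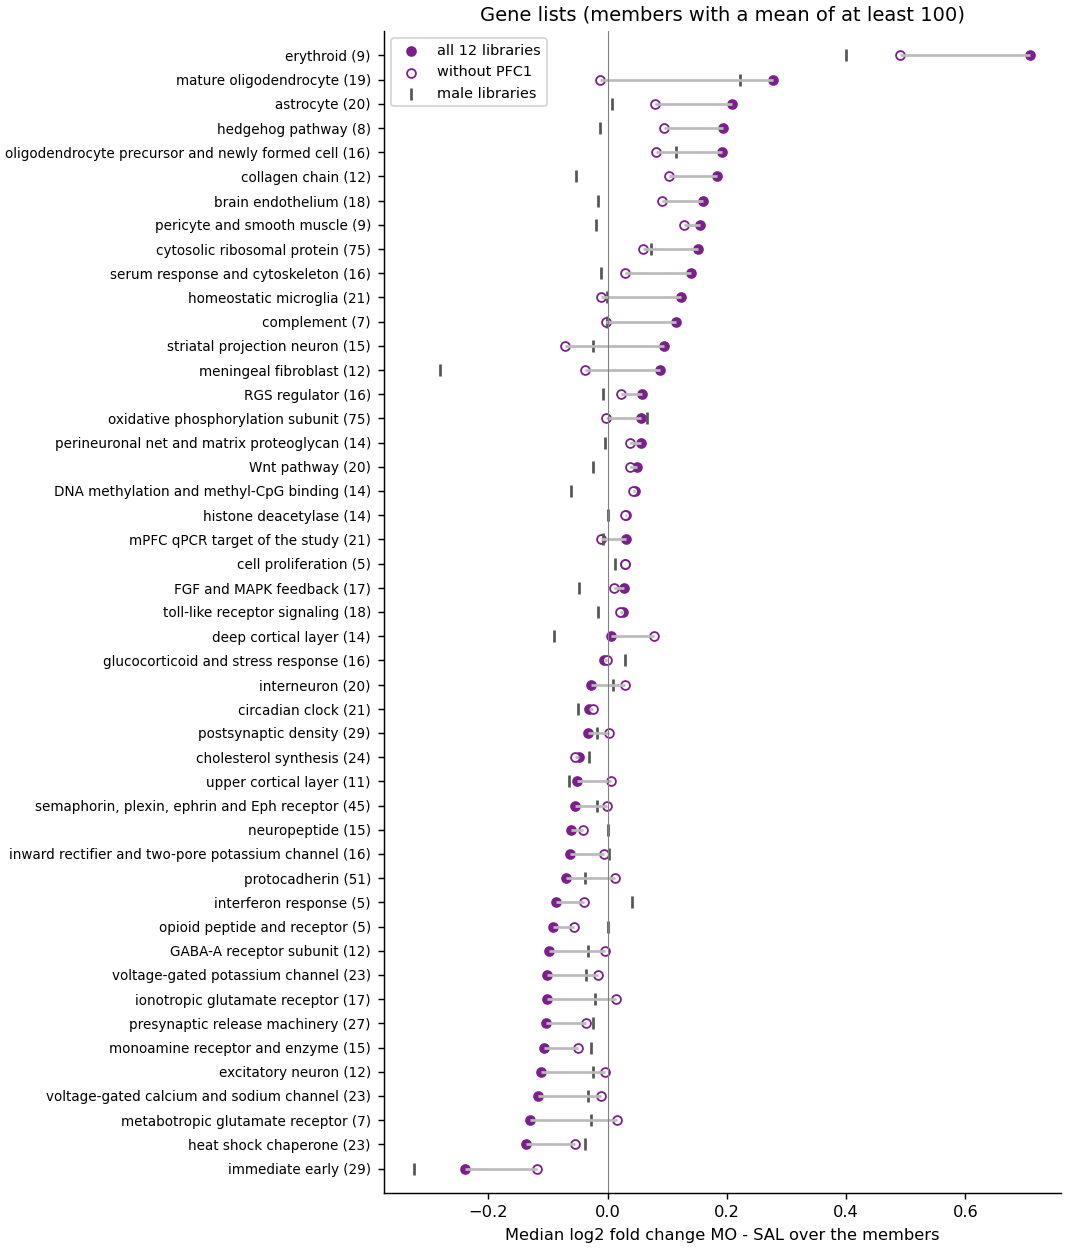
Median over each gene list of its members' log2 fold changes (MO less SAL) with at least 5 members read out (x axis), with the number of members in brackets. Filled circles are all 12 female libraries, open circles are without PFC1 and bars are the male libraries. The oligodendrocyte median moves from 0.28 to -0.01 and the pericyte median from 0.16 to 0.13 when PFC1 is left out.

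Housekeeping lists had small differences. All 75 cytosolic ribosomal protein genes read out had a log2 fold change above 0, with a median of 0.15 and a range of 0.07 for Rpl3 to 0.24 for Rps27a, and without PFC1 74 of 75 were above 0 with a median of 0.06. None was called (limma, unadjusted), and the sums did not separate the groups. They were highest in PFC1 at 417240 and lowest in the SAL library PFC22 at 232100, with the MO library PFC8 at 239320. In PFC2, PFC4 and PFC6 of SAL all 75 genes lay above the SAL mean, and in PFC22 and PFC24 all 75 lay below it, so the members moved together from library to library. The 75 subunits of oxidative phosphorylation had medians of 0.06 and 0.00, with 0 called.

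Opioid peptide and receptor genes that could be read out gave no call. Of 8 opioid peptide and receptor genes, 5 reached a mean of 100, Oprm1, the mu receptor on which morphine acts, not among them, and 0 were called. Penk, which encodes proenkephalin, ran from 533 to 883 in SAL and from 507 to 1795 in MO, where PFC1 held the highest value and the other 5 lay at or under 663. Its log2 fold change was 0.10 (95% interval -0.42 to 0.61), and -0.17 without PFC1. Oprl1, the nociceptin receptor, had -0.09 (95% interval -0.31 to 0.13) and 0.00 without PFC1. A list of 28 genes assayed by qPCR in the same tissue had 21 members with a mean of at least 100, and 0 of them were called. Of 20 glucocorticoid and stress response genes 16 were read out and 0 called, with a median of -0.01, and 0.00 without PFC1.

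The male libraries served as the other sex of the same design. In a model over both sexes, the female minus male difference of the MO effect passed an adjusted p of 0.05 for 0 of 10564 genes (limma, smallest adjusted p = 1.00), with 113 at an unadjusted p under 0.05 (1.07%). Of the 105 genes higher in MO females, 69 (65.7%) were above 0 in males, where 48.9% of all genes were. Of the 98 lower genes, 74 (75.5%) were under 0 in males, against 51.1% of all. Few passed in both sexes: 1 of the higher and 4 of the lower genes had an unadjusted p under 0.05 in the same direction in males. Gli3 had a male log2 fold change of -0.08 and a female minus male difference of 0.49, Slc16a1 -0.06 and 0.34, Fzd6 -0.08 and 0.45, and Nefh -0.10 and -0.26, none at an adjusted p under 0.05. Cbln2 was lower at an unadjusted p under 0.05 in both sexes, with -0.23 in females and -0.13 in males. The medians of the endothelial, pericyte and collagen lists in males were -0.02, -0.02 and -0.05.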

How the data were processed

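RNA of the mPFC was sequenced by the authors as single-end reads from polyadenylated RNA with a directional kit, aligned with STAR to mm10 and quantified with Salmon against RefSeq genes. Per the labels the tools were STAR, Salmon and DESeq. The deposited tables, 1 for each sex, hold the authors' normalized counts, a signal that is not whole numbers, with no single step per library, so whole reads were not recovered and tests for counts were not used. Sums per female library were 14.7 to 15.5 in units of 1000000 normalized counts, and 1 normalized count stood for about 1 read (commonest low value 0.895 to 1.13). Depth before scaling is not given.

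Groups came from the labels, and columns not matched to a sample numbered 0. Values were transformed as log2(value + 1). Genes with a sum of at least 10 over the 12 female libraries (16717) were fitted with limma 3.58.1 in R 4.3.3, using moderated variances with a mean trend. P values were adjusted over the fitted genes (Benjamini-Hochberg), and genes with a mean of at least 100 were read out. The mean was taken over both groups, so a gene near 100 can be read out through the group where it is higher. The replicate is the offspring, 1 library each. Exact permutation tests were 2-sided over 924 relabellings, or 462 without PFC1. The difference between the sexes was an interaction contrast over 24 libraries treated as independent. Lists (52) are described by counts and medians without tests. The members and lists were chosen with earlier results of these data known. Genes named in the text, predicted names (Rik and the like) excluded, were drawn from a rule, and not every gene of it is named. The rule holds the 10 smallest unadjusted p values in each direction, the 8 largest folds and those whose groups do not overlap. It also holds up to 4 called members per list or else abundant ones, and those moved most by PFC1. Xist was planned as a check of the sex label. Ptch1, Cldn5, Slc2a1, Nefl, Syn1, Scn4b, Vamp1, Pvalb, Grik1, Btg2, Dusp1, Rps27a, Alas2, Malat1, Meg3, Amd1, Col1a1 and 4933434E20Rik lie outside this rule and were chosen after their values were seen. Some items are not reported here. The fit was tested on simulated data. Positions are from GENCODE vM21 and promoters from RefSeq (both GRCm38, the build mm10). Figures used matplotlib 3.10.9.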

Additional observations from a re-analysis of the deposited data

Results flagged for a closer look

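In each group of 6 libraries the highest and the lowest value were compared with the range of the group (the gap to the nearest library as a share of the range, by Dixon's 95% criterion), for the genes named in the text, the sums of cell type markers and 3 measures of the libraries, 146 groups in all, of which 22 exceeded the criterion. Chance alone puts about 1 in 20 such groups past it.

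PFC1 accounted for all 12 of the gaps flagged among MO libraries. It was lowest for the summed signal (14.7 in units of 1000000 normalized counts, next 15.2), for the median Spearman correlation with the other libraries (0.954, next 0.988) and for Pld3 (9745, next 10939). It was highest for Hspa12b (170, next 133), Penk (1795, next 663) and Scn4b (1106, next 367). Among marker sums it was highest for striatal projection neurons (27069, next 15181), homeostatic microglia (18857, next 12084), pericytes and smooth muscle (6492, next 5001), meningeal fibroblasts (16928, next 10502), neutrophils (569, next 93.6) and T and B lymphocytes (116, next 66.3).

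Among SAL libraries, PFC22 was highest for Gli3 (116, next 99.8) and lowest for Wnt7a (164, next 205), PFC2 was highest for Nefh (1358, next 1044) and for the parvalbumin interneuron genes Scn4b (701, next 457), Vamp1 (1007, next 749.8) and Pvalb (822, next 597), PFC7 was highest for Gorab (155, next 143), and PFC6 was highest for T and B lymphocyte markers (90.1, next 62.3). PFC6 was also lowest for the activity-regulated genes Egr1 (4419, next 7109) and Fos (391, next 733).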

How the results depend on the processing

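No gene passed an adjusted p of 0.05 in limma under any of the alternatives run, with or without a single library, and the same held for the female minus male difference. Counts at an unadjusted p under 0.05 moved. Against 105 higher genes, a term for the suffix gave 175 and a mean minimum of 500 gave 33, and leaving out 1 library gave 71 (without PFC3) to 269 (without PFC21). Against 98 lower genes, fitting all genes without a filter gave 174 and a mean minimum of 500 gave 52, and leaving out 1 library gave 58 (without PFC4) to 267 (without PFC8). Against 61 lower genes without PFC1, no filter gave 127. Rescaling the libraries by their median ratio moved the median of all genes from -0.01 to 0.00 and gave 123 higher and 85 lower genes. Genes without overlap numbered 2 higher and 3 lower after rescaling, 3 higher at a mean minimum of 50 and 3 lower at 500. Leaving out 1 library can only add to such genes, and gave 2 to 20 higher and 6 to 36 lower. The cause of these changes was not tested, other than that a higher minimum reads out fewer genes.

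For the 39 called genes examined one by one, 369 of 390 values under alternatives other than leaving out a library counted as unchanged. This meant the same direction and side of the threshold. Within the libraries with or without the suffix no p was taken, and it meant the same direction and a shift under the SD within groups. Of the rest 12 kept direction alone, and 9 moved by more than the spread or turned. All 9 arose within the 4 libraries without the suffix, where Hapln1 turned to -0.081, Smad5 had 0.14, Ldlrad3 0.15, Podxl 0.14, Fzd6 0.12, Lrrc58 and Homer2 0.01, Nefh -0.12 and Nefm -0.05. Of 468 values with 1 library left out 393 kept the call, 75 lost it and 0 turned. Without tables of raw counts, no counting error can be set beside these values, and 6 libraries a group limit the precision. No paired analysis was possible because the groups share no replicate numbers and the litters are not given.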

Other observations

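Globin and heme genes of red blood cells had the largest median of any list, 0.71 with all libraries and 0.49 without PFC1, and 0 of 9 were called. Alas2, the enzyme that starts heme synthesis in red cell precursors, had normalized counts of 34.9 to 161 in SAL and of 74.0 to 286 in MO, where PFC1 and PFC5 were highest (log2 fold change 0.78, exact permutation p = 0.115; 0.62 without PFC1, exact permutation p = 0.225). Summed over the list, PFC1 reached 47713 and the highest other MO library 45034, against at most 29583 in SAL. The animals were not perfused, and near-identical globin copies share reads, so single globin genes are uncertain. The male median was 0.40.

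A pair of long noncoding RNAs was low in most libraries with the column suffix. Malat1 stood at 705 in PFC2, 919 in PFC4 and 900 in PFC6 and between 3522 and 5329 in the 4 libraries without the suffix, but among libraries with the suffix PFC3 stood at 3346 and PFC1 was the highest of all at 5592. Meg3 ran from 391 in PFC2 to 3391 in PFC1, with 2518 to 2955 in the libraries without the suffix. Neither was called in MO against SAL, at log2 fold changes of 0.87 and 0.63. Xist, also a noncoding RNA, had a similar pattern. It ran from 75.3 in PFC4 to 237 in PFC7 in the libraries with the suffix other than PFC1, which stood at 550. In the libraries without the suffix it ran from 314 in PFC21 to 553 in PFC24.

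Amd1, an enzyme of polyamine synthesis, was listed at 0 in the SAL libraries PFC2 and PFC24 and at 198 to 1352 in the other libraries of both groups, so its fitted difference carries no fold that can be read.

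Markers of meningeal fibroblasts were under 0 for 12 of 12 genes in males, 5 of them at an unadjusted p under 0.05, and above 0 for 10 of 12 in females with 0 called. Without PFC1, whose sum of these markers was 16928, only 4 of 12 were above 0 in females and the median went from 0.09 to -0.04. For Col1a1, a chain of collagen I, the log2 fold change was 0.59 in females (0.39 without PFC1) and -0.69 in males, and the female minus male difference of 1.28 had an adjusted p of 1.00 (limma).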
